A study of Mus musculus with 3 samples.

Results

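Accessible chromatin was examined at the genes of 10 transcription factors of endothelial cells (Erg, Fli1, Sox7, Sox17, Sox18, Tal1, Nfatc1, Prox1, Nr2f2 and Sall1) in nuclei of mouse hearts. The 10 genes were taken by name from 21728 annotated protein-coding genes. For each gene the ATAC fragments that overlap the gene body and the 2000 bp upstream of it were counted, and, separately, those within 1000 bp of its annotated transcription start sites. An ATAC fragment is a piece of DNA between 2 insertions of the Tn5 transposase, which cuts open chromatin, so that these counts describe accessibility and not RNA. All hearts were wild type and snap-frozen, with 1 library for vehicle, 1 for sunitinib and 1 for sunitinib together with Yoda1. Sunitinib is a tyrosine kinase inhibitor of VEGF and PDGF receptors, and Yoda1 is an agonist of the mechanosensitive channel PIEZO1. The sample titles also carry 3 months, with no statement of whether this is an age or a time of treatment. The labels give no dose, sex, strain or number of animals per library. The files used were the ATAC fragments. With 1 library per group there was no spread between animals and no test between groups, and every interval below is a 95% interval that covers counting error only.

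ERG and FLI1 are ETS-family factors that keep up endothelial identity and junction genes, and the SOXF factors SOX7, SOX17 and SOX18 act in vessel formation and in the choice of arterial and lymphatic fates. TAL1 is a basic helix-loop-helix factor of blood and endothelial lineages that works with GATA factors. NFATC1 is a calcium and calcineurin dependent factor known for its role in the endocardium, the inner lining of the heart, during valve formation. PROX1 directs lymphatic identity and is also made in cardiomyocytes, NR2F2 (COUP-TFII) is known for venous, lymphatic and atrial identity, and SALL1 is a zinc finger factor best known from kidney and limb development.

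Of the deposited fragments, 18704581 unique ones came from the vehicle library, 23653823 from sunitinib and 583792 from sunitinib plus Yoda1. After the quality filters 2619, 3780 and 11 nuclei remained, so that cell classes were available in the vehicle and sunitinib libraries only. The median was 2177 fragments per nucleus with vehicle and 2371 with sunitinib, and 21 nucleus barcodes occurred in both libraries. The nuclei were clustered without any genome tile within 100 kb of the 10 genes and named from markers that do not include them. Clusters of 453 and 61 nuclei could not be named and were left out of the named classes. The larger cluster had 3 of 12 readable lymphatic markers raised 2-fold, but the median log2 ratio of these markers, 0.37, was too low for a name. The smaller cluster held 1458643 fragments and had Cd93 and Myct1 among its leading genes. The vascular endothelial-like class, which holds the capillary nuclei, had 1040 nuclei (39.7%) with vehicle and 1108 (29.3%) with sunitinib. Endocardial-like nuclei numbered 134 (5.12%, from 4.30 to 6.03) and 59 (1.56%, from 1.19 to 2.01). They came from a cluster of 230 nuclei, lymphatic-like ones included, in which 8 of the 13 listed endocardial markers were raised. When the endothelial nuclei alone were split again, a cluster of 219 was named venous by the same rule. It had 4 of 6 readable venous markers raised and shared the leading genes Ptgs2, Cdh11, Lyve1 and Adh6b. The name endocardial-like is thus that of the first clustering, and venous nuclei may be among them. A lymphatic-like class of 22 and 15 nuclei was split from the endocardial cluster at a resolution chosen after viewing the data. It had 7 of 10 readable lymphatic markers raised, and its leading genes were Apba2, Reln and Sema3d. T-lymphocyte-like nuclei took 8.36% of the vehicle and 34.8% of the sunitinib nuclei. Fragments of T cell markers stood at 155 CPM (counts per 1000000 fragments of the class) in the vascular class with vehicle and at 195 with sunitinib. Nuclei in T-marked sub-clusters were 5.58% and 7.22% of that class, and their part in the differences below was not tested. The gene-body comparisons between endothelial classes, and those of sunitinib with vehicle within them, were repeated without these nuclei.

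The ETS genes lie on chromosome 16 (Erg, chr16:95359169-95586593, minus strand) and chromosome 9 (Fli1, chr9:32422204-32542861, minus), in mm10 coordinates. The SOXF genes lie at chr14:63943673-63950732 (Sox7, plus), chr1:4490931-4497354 (Sox17, minus) and chr2:181669836-181671640 (Sox18, minus). Tal1 lies at chr4:115056426-115071755 (plus). Prox1 lies at chr1:190118035-190170714, Nr2f2 at chr7:70351944-70366735 and Sall1 at chr8:89027235-89044162, all on the minus strand. None of the 10 overlaps another protein-coding gene, but noncoding genes overlap Fli1, Sox17, Nfatc1, Prox1 (Gm28172 and the antisense Prox1os) and Nr2f2, and ATAC fragments carry no strand to separate them.

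RefSeq promoters of build GRCm38.p6, the mm10 assembly, were matched for 5 of the 10 genes and 11 start sites. The 250 bases before 5 of these starts are printed 5′ to 3′ on the gene's strand. They are 1 outermost start of each of 4 genes and an inner start of Erg, which was the open one of that gene. Capitals mark matches on either strand to 4 motif cores. The first ETS core searched was CAGGAA. The second, also bound by ETS factors, was CCGGAA. The core of SOX factors was ACAAT, and that of GATA factors was AGATAA. Erg promoter 1 lies at the outermost start (chr16:95586594-95586843) and Erg promoter 3 inside the gene (chr16:95459349-95459598). The others are Tal1 promoter 1 (chr4:115056176-115056425), Prox1 promoter 1 (chr1:190170828-190171077) and Sall1 promoter 1 (chr8:89044163-89044412).
Erg promoter 1: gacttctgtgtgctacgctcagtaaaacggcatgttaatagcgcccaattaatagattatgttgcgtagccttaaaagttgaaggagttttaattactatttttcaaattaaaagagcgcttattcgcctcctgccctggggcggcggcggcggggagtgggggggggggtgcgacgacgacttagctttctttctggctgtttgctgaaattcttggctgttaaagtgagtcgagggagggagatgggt
Erg promoter 3: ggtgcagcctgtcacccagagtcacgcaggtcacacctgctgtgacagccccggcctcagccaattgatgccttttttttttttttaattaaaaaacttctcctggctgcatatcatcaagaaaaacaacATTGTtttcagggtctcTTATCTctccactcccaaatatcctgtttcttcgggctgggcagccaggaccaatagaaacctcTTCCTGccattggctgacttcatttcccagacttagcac
Tal1 promoter 1: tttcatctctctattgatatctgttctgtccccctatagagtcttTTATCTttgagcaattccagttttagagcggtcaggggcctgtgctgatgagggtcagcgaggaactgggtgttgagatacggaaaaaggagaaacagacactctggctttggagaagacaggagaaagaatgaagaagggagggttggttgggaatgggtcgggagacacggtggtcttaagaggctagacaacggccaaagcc
Prox1 promoter 1: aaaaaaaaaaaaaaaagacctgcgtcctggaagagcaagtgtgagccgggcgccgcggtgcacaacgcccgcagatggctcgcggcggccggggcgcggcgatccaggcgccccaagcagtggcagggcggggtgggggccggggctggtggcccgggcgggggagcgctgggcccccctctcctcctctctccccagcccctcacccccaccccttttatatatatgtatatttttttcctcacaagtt
Sall1 promoter 1: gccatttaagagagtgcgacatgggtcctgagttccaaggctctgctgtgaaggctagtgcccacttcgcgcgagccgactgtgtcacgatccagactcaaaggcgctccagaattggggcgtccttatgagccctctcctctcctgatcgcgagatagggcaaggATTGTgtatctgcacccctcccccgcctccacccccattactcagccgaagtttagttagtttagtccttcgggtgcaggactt
Erg promoter 3 held 1 match each to the first ETS core, the SOX core and the GATA core, all on the opposite strand and without overlap. Erg promoter 1 held none of the 4. Tal1 promoter 1 held 1 GATA core, also on the opposite strand, and Sall1 promoter 1 held 1 SOX core. Of 32851 RefSeq promoters of the same length, 25.7% held the first ETS core and 12.0% the second. The SOX core was in 27.7% and the GATA core in 9.99% of them. A match is a run of letters and not a site, and a missing one says only that these letters are not in this window.

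Within 500 bp of the start, Erg promoter 3 had 66 fragments in vascular endothelial-like nuclei with vehicle and 97 with sunitinib, or 21.3 and 25.7 CPM. Erg promoter 1 had 1 and 5 fragments there, and the promoter between them 1 and 0. Promoter 3, which holds the ETS, SOX and GATA letters, was the open one of the 3 Erg promoters in these nuclei. A link between letters and openness was not tested. Tal1 promoter 1 had 40 and 69 fragments and Tal1 promoter 2, which lies 1.39 kb inside the gene, had 37 and 41. Prox1 promoter 1 had 14 and 16 fragments in the vascular class and 9 and 7 in the far smaller endocardial-like class. Sall1 promoter 1 had 7 and 2 fragments in the vascular class and 9 and 1 in the endocardial-like class. Its promoters 2 and 3, which hold none of the 4 cores and are not printed, had more in the endocardial-like class, 15 and 5 at promoter 2 and 13 and 3 at promoter 3. In the vascular class they had 8 and 5, and 4 and 7. Promoters 2 and 3 start 0.65 and 1.3 kb inside Sall1, so that windows of neighbouring promoters overlap and can count the same fragments.

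Over the gene body, 9 of the 10 genes had their highest level in an endothelial class, the mean of the vehicle and sunitinib libraries taken over 10 classes, as did 22.1% of 14248 genes with at least 200 fragments. With the small lymphatic-like class left out it was 8 of the 10, against 12.1% of genes. Fli1 and Nfatc1 were near ties with lymphoid classes, as given below. Nr2f2 was the exception, with 108 and 100.5 CPM in mural-like nuclei (pericytes and smooth muscle). Between vascular endothelial-like nuclei and those of the 7 named non-endothelial classes, 8 of 9 measured genes (those whose fragments reached 200 in total and an expected 30 per library) had a log2 ratio of at least 0.32 in both libraries. Among all 14053 measured genes 12% did so in that direction, and 16% in the other, where Prox1 was the only one of the 10 (log2 ratio -0.79 and -0.72). Sox18 had the largest log2 ratios, 2.52 (1.78 to 3.43) with vehicle and 3.07 (2.48 to 3.76) with sunitinib, followed by Sox17 with 2.40 (1.89 to 2.98) and 2.61 (2.22 to 3.04). Nfatc1 was far less tied to the class, at 0.40 (0.25 to 0.56) and 0.33 (0.20 to 0.46).

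**Figure D1:**
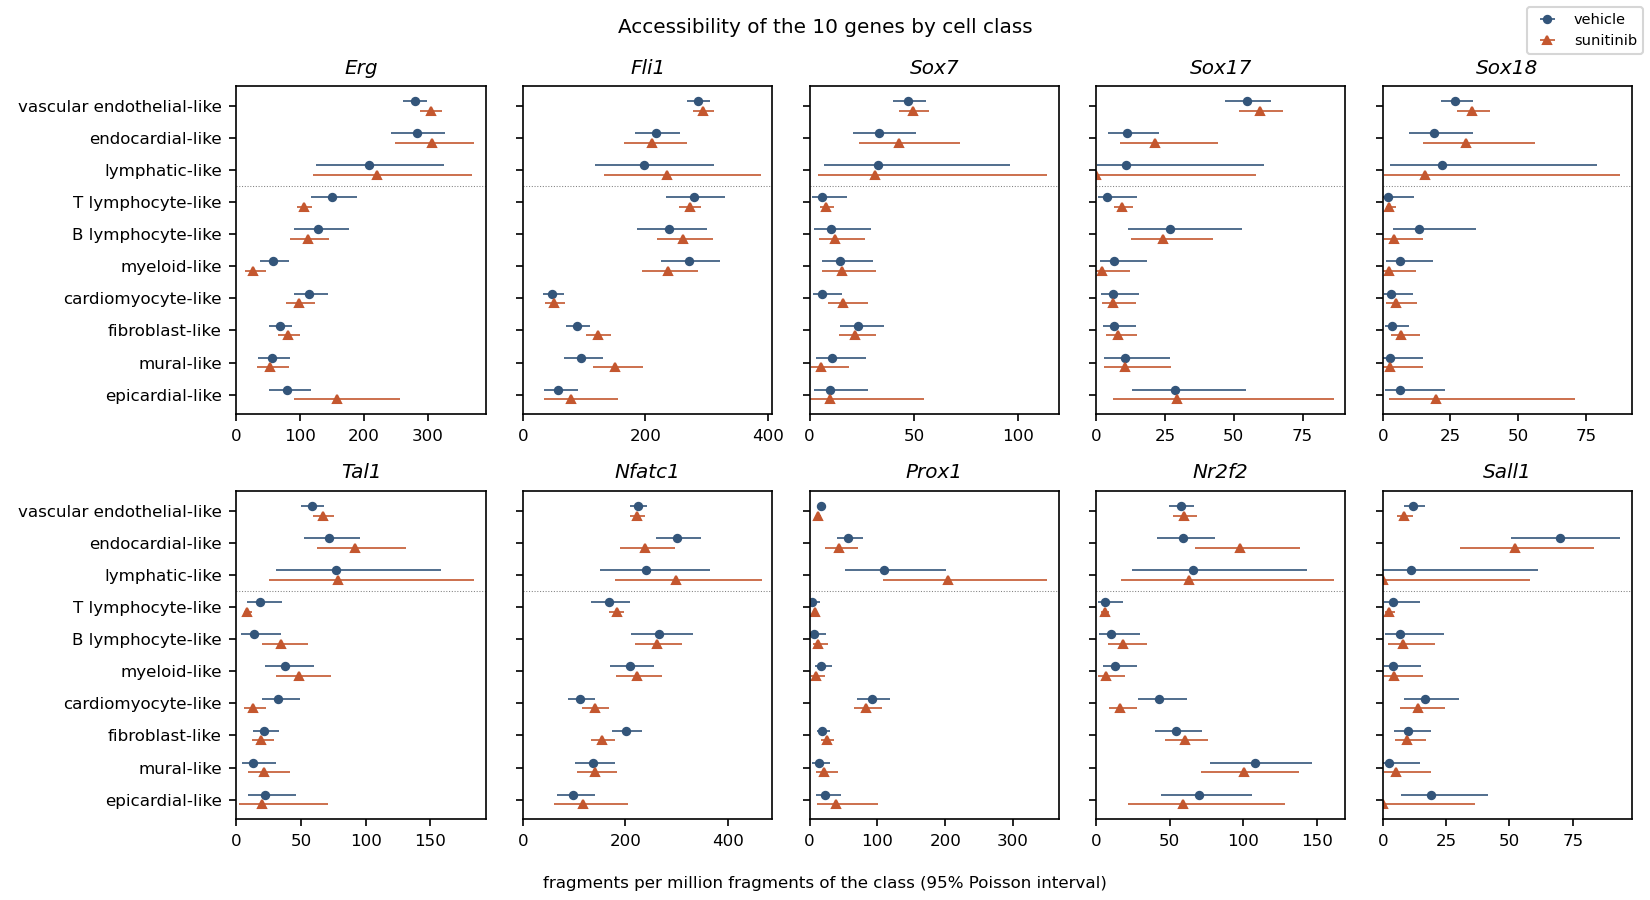
CPM over the gene body of each of the 10 genes by cell class, with 1 point per library (linear axes that differ between genes) and exact Poisson 95% intervals. Erg and the SOXF genes stand highest in endothelial classes, Fli1 also in lymphoid and myeloid classes, and Prox1 in lymphatic-like nuclei and cardiomyocytes.

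Erg was read at 279 CPM in vascular endothelial-like nuclei with vehicle and at 304 with sunitinib. Endocardial-like nuclei had 282 and 306, and lymphatic-like nuclei 208 and 220. With both libraries pooled, the intervals of these 3 classes overlapped and those of the 7 other classes lay below them, the next being T-lymphocyte-like nuclei at 150 and 106. Fli1, the other ETS gene, was at 287 and 295 in the vascular class, but T-lymphocyte-like nuclei (279 and 272), myeloid-like nuclei (271 and 237) and B-lymphocyte-like nuclei (239 and 262) had pooled intervals that overlapped in turn. Erg thus separated endothelium from blood cells over the gene body and Fli1 did not.

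The SOXF genes are short, and in CPM per kb of the whole counted region they had the highest values of the 10 in vascular endothelial-like nuclei. Sox18 had 7.05 with vehicle and 8.70 with sunitinib, Sox17 6.49 and 7.07, and Sox7 5.21 and 5.46. Erg, with its long introns, had 1.22 and 1.33. In start windows alone the order differed. Fli1 had 13.6 and 15.5 CPM per kb there, against 13.9 and 14.4 for Sox7 and 8.40 and 11.1 for Sox18. Among the SOXF genes, Sox17 was the one bound to the vascular class. It had 54.7 and 59.6 CPM there, against 28.6 and 29.5 in the next class, the epicardial-like or mesothelial-like nuclei, with no overlap of the pooled intervals.

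Tal1 was at 58.5 and 67.0 CPM in vascular endothelial-like nuclei, 71.4 and 91.8 in endocardial-like nuclei and 76.7 and 78.7 in lymphatic-like nuclei, followed by 37.8 and 48.3 in myeloid-like nuclei. Nfatc1 (chr18:80606205-80713071, minus) was at 226 and 224 CPM in the vascular class, 301 and 239 in the endocardial-like class and 241 and 299 in the lymphatic-like class. B-lymphocyte-like nuclei, with 266 and 262, were within the same range, so that the gene body was not open in endothelium alone. Prox1 was highest in lymphatic-like nuclei, at 110 and 205, resting on 10 and 13 fragments. Cardiomyocyte-like nuclei followed with 91.5 and 83.7, and the vascular class had 16.5 and 13.0. Sall1 was highest in endocardial-like nuclei, at 69.8 and 52.0 from 44 and 17 fragments. Cardiomyocyte-like nuclei had 16.8 and 13.7 and the vascular class 12.0 and 8.47. In lymphatic-like nuclei Sall1 had 1 fragment with vehicle and 0 with sunitinib, and the latter allows up to 47.2 CPM.

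Endocardial-like and vascular endothelial-like nuclei of the same library were then compared. Erg was alike in level, with log2 ratios of 0.02 (-0.23 to 0.25) with vehicle and 0.01 with sunitinib. Sox17 was lower in endocardial-like nuclei, by 4.61-fold with vehicle (11.1 against 54.7 CPM, log2 ratio -2.20, from -3.64 to -1.23) and by 2.60-fold with sunitinib (21.4 against 59.6, -1.38, from -2.81 to -0.41). Fli1 was lower as well over the gene body, at -0.40 (-0.67 to -0.14) and -0.47 (-0.85 to -0.13). Its start window was alike in the 2 classes, at 44.4 CPM in endocardial-like against 44.3 in vascular nuclei with vehicle. With sunitinib it was at 49.0 against 50.6. Over the gene body Sox17 and Fli1 were the 2 of 7 measured genes past the lower bound in both libraries, where 11.6% of 8599 genes were. The intervals of Sox7 and Sox18 included 0 in both libraries.

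Sall1 and Prox1 were higher in endocardial-like nuclei. Sall1 had log2 ratios of 2.54 (1.88 to 3.22) and 2.64 (1.68 to 3.51), and Prox1 of 1.80 (1.13 to 2.44) and 1.76 (0.75 to 2.60). Both had too few fragments to count as measured, so that 0 of the 7 measured genes were past the upper bound in both libraries, against 8.18% of all genes. Nr2f2 was at 58.7 CPM in endocardial-like against 57.6 in vascular nuclei with vehicle, and at 98.0 against 59.8 with sunitinib (log2 ratio 0.73, with a lower limit of 0.13). Prox1 was also higher in lymphatic-like than in vascular nuclei, by 2.79 (1.59 to 3.73) and 4.02 (2.97 to 4.88) on the log2 scale. Against endocardial-like nuclei its lymphatic-like ratio was 0.99 (-0.24 to 1.98) with vehicle and 2.26 (1.05 to 3.45) with sunitinib.

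**Figure D2:**
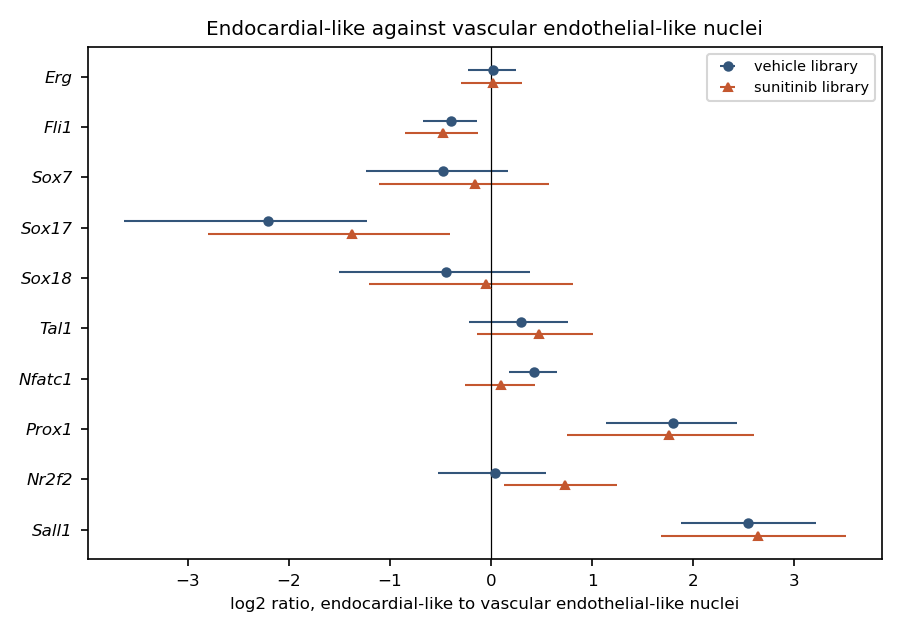
Log2 ratio of CPM in endocardial-like to vascular endothelial-like nuclei for each gene body, with 1 point per library and 95% intervals of counting error. Sall1 (2.54 and 2.64) and Prox1 (1.80 and 1.76) lie above 0 and Sox17 (-2.20 and -1.38) and Fli1 below it in both libraries.

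Whole-gene counts hid differences between start sites of a gene. For Nfatc1 the endocardial to vascular log2 ratio over the body was 0.42 (0.18 to 0.65) with vehicle and 0.10 with sunitinib. The window at its innermost start, 104.1 kb inside the gene, had 24 and 12 fragments in endocardial-like nuclei, or 38.1 and 36.7 CPM, against 5.17 and 5.82 in vascular nuclei. That is a log2 ratio of 2.86 (1.91 to 3.89) and 2.68 (1.51 to 3.73). At the 2 other start windows of Nfatc1 the ratios were -0.70 and -1.06 (outermost start) and -0.42 and -0.27 (4.90 kb inside), with intervals that include 0. The innermost window was singled out after its values were seen. An arterial subset, with 4 of 11 arterial markers raised, held 118 and 166 vascular nuclei and 2 and 1 endocardial-like ones. It was compared with the other vascular nuclei, from which T-marked nuclei were left out. Nfatc1 was higher in the arterial subset by 0.47 (0.14 to 0.77) and 0.37 (0.11 to 0.62) on the log2 scale. It was 1 of 7 measured genes past 0.32 in both libraries, where 5.2% of 8218 genes were, and none of the 7 was past -0.32 (4.09%).

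Erg was likewise open at an inner start, in vascular and in endocardial-like nuclei. The start window 127.3 kb inside Erg, which holds promoter 3 printed above, had 26.2 and 33.1 CPM in vascular nuclei and 25.4 and 30.6 in endocardial-like nuclei. The outermost start window had 4.53 and 4.24 in vascular nuclei. Split at 120 kb from its outermost start, a division made after the values were seen, the outer stretch of Erg had 0.321 and 0.326 CPM per kb in vascular nuclei and the inner stretch 2.24 and 2.47. In T-lymphocyte-like nuclei the inner stretch had 0.917 and 0.687, against 0.421 and 0.272 in the outer one.

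Both start windows of Sox17 were open in vascular nuclei (18.8 and 24.6 CPM at the inner, 19.4 and 21.2 at the outer). In the smaller endocardial-like class they held 2 to 3 fragments per library. These were 3.17 and 9.18 CPM at the inner and 4.76 and 9.18 at the outer. The endocardial to vascular log2 ratios with vehicle were -2.255 (-5.64 to -0.65) and -1.82 (-4.35 to -0.41). With sunitinib they were -1.21 (-3.73 to 0.17) and -0.99 (-3.51 to 0.39), with intervals that include 0. The Sall1 start window had 25.4 and 12.2 CPM in endocardial-like and 4.53 and 1.32 in vascular nuclei, a log2 ratio of 2.48 (1.36 to 3.63) and 3.24 (0.88 to 5.43). The gene body and the start window of Sall1 thus gave ratios of like size.

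**Figure D3:**
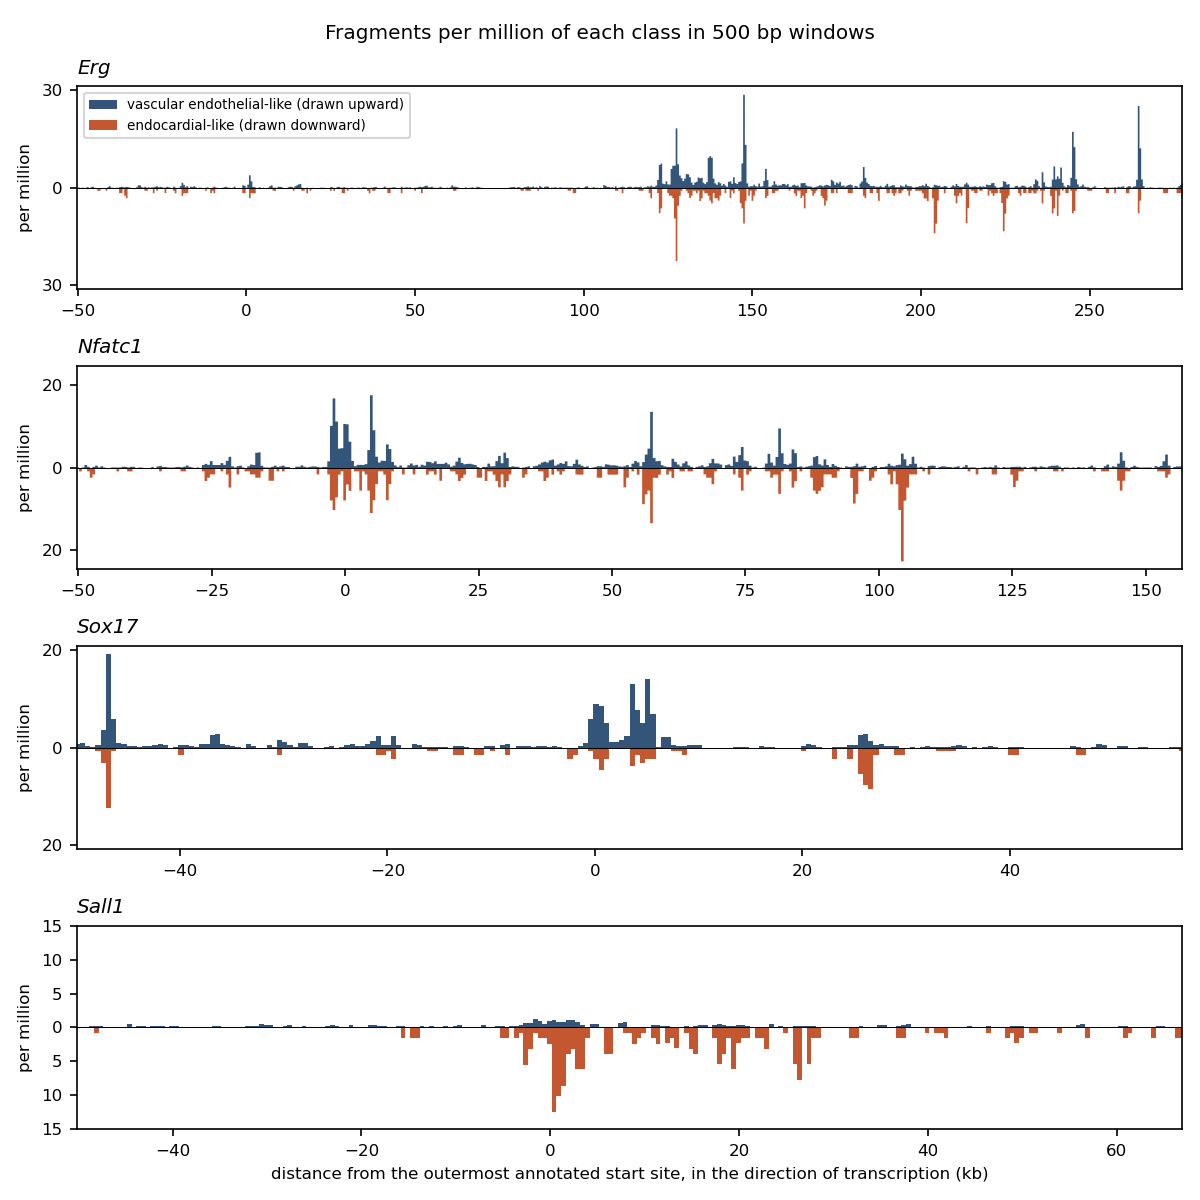
CPM in windows of 500 bp along Erg, Nfatc1, Sox17 and Sall1 and 50 kb on each side, the mean of the vehicle and sunitinib libraries, with vascular endothelial-like nuclei drawn upward and endocardial-like nuclei downward against distance from the outermost start in kb. Erg is nearly closed for its first 120 kb in both classes, and the start at 104.1 kb in Nfatc1 and those of Sall1 are higher in endocardial-like nuclei.

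Away from start sites, the 3 windows of 500 bp with most fragments in vascular nuclei were taken for each gene, over the gene and 50 kb on each side. The levels of these windows in that class are the basis of the choice and so a description. For Erg a window 147.3 kb inside the gene had 27.2 and 30.4 CPM in vascular nuclei and 9.52 and 12.2 in endocardial-like nuclei. For Sox17 a window 46.9 kb upstream had 15.8 and 22.8 against 9.52 and 15.3. For Sox18 a window 11.9 kb downstream of the start had 23.6 and 29.4 against 20.6 and 27.5. Windows were also chosen in endocardial-like nuclei, as planned for Nfatc1, and their level in that class is again set by the choice. The first for Nfatc1, 57.3 kb inside the gene, had 11 and 3 fragments there, or 17.4 and 9.18 CPM, against 14.2 and 13.0 in vascular nuclei. Its endocardial to vascular log2 ratios, 0.34 (-0.81 to 1.27) and -0.29 (-2.82 to 1.13), included 0. The choice was extended to all genes after the data were seen, and for Erg it gave a window at 203.8 kb with 6 and 6 fragments, against 4 and 3 in the larger vascular class. The lymphatic-like class gave only 2 to 3 fragments per library in the Prox1 windows chosen there.

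Sunitinib and vehicle were compared first in vascular endothelial-like nuclei, with 3777321 and 3092240 fragments. For none of the 8 measured genes was the gene body past a log2 ratio of 0.32 in either direction, where 6.4% of 9210 genes were past it upward and 3.25% downward. Erg went from 279 to 304 CPM, a log2 ratio of 0.12 (-0.0047 to 0.25), and Fli1 from 287 to 295, a ratio of 0.04 (-0.09 to 0.17). Among the SOXF genes the ratios were 0.07 (-0.25 to 0.39) for Sox7, 0.12 (-0.17 to 0.42) for Sox17 and 0.30 (-0.11 to 0.72) for Sox18. Tal1 had 0.19 (-0.09 to 0.48), Nfatc1 -0.01 (-0.16 to 0.13) and Nr2f2 0.05 (-0.23 to 0.35). The Erg, Fli1 and Nfatc1 intervals thus lie inside 0.32 on both sides, while those of the SOXF genes, Tal1 and Nr2f2 do not exclude a ratio past it. Prox1 (51 and 49 fragments) and Sall1 (37 and 32) had too few fragments, with ratios of -0.35 (-0.94 to 0.25) and -0.50 (-1.23 to 0.22). The median was 0.10 over the 8 genes and 0.05 over all genes.

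At the start sites 1 of 8 measured genes was past the bound upward, Sox18 with 16.8 and 22.2 CPM (0.40, from -0.11 to 0.93), where 16.2% of 11366 genes were. None of the 8 was past it downward (4.65% of all genes). The median was 0.21 over the 8 and 0.10 over all genes. Without the T-marked nuclei, 3 of 8 were past it upward, Sox17 at 0.36, Sox18 at 0.48 and Tal1 at 0.34, against 17.6% of genes, and 0 downward, against 4.6%. Sall1 had 14 start-site fragments with vehicle and 5 with sunitinib, below the minimum, at -1.69 (-3.60 to -0.22). Of the 30 distal windows chosen in vascular nuclei, 18 had a ratio above 0, with a median of 0.18. There were 9 past 0.32 upward and 7 past it downward. No minimum of fragments was applied, and the windows held from 6 to 199 fragments over both libraries. The share past the bound among other windows was not counted, so that these counts have no background to be read against. An interval lay wholly above 0 for 3 and below it for 0. These 3 windows lay outside annotated genes. One was 14.1 kb downstream of the Sox7 start, with 28 fragments (9.05 CPM) with vehicle and 73 (19.3) with sunitinib (log2 ratio 1.08, from 0.45 to 1.78). The Sox17 window 46.9 kb upstream went from 49 to 86 fragments (0.52, from 0.00029 to 1.06), and a Tal1 window 3.68 kb upstream from 42 to 79 (0.61, from 0.065 to 1.20). They were named after their values were seen.

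**Figure D4:**
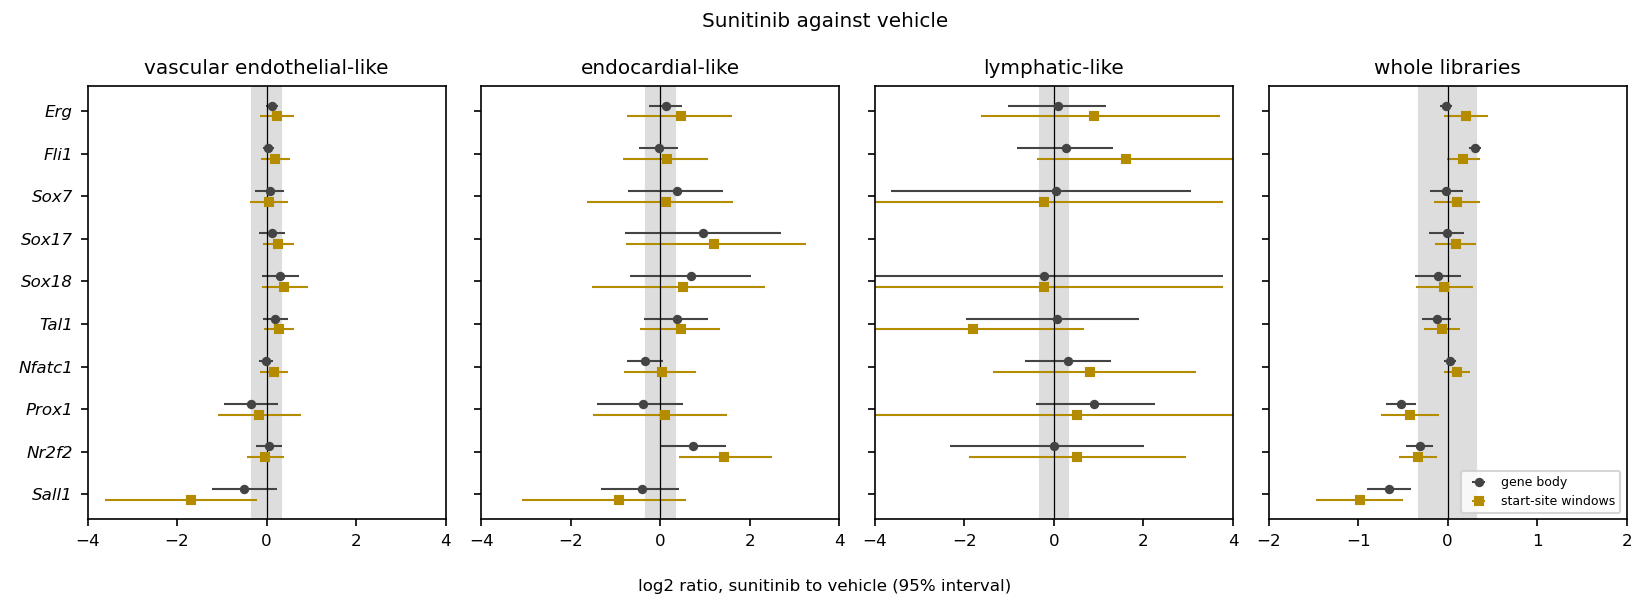
Log2 ratio of sunitinib to vehicle for each gene body (circles) and its start-site windows (squares) in the 3 endothelial classes and in whole libraries, with 95% intervals of counting error and the range from -0.32 to 0.32 shaded; pairs with 0 fragments on a side are left out. In vascular endothelial-like nuclei the 8 measured gene bodies lie between -0.01 and 0.30, and the intervals widen in endocardial-like and lymphatic-like nuclei.

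In endocardial-like nuclei 3 genes were measured. Nfatc1 went from 301 to 239 CPM (-0.33, from -0.74 to 0.05) and was the 1 past the bound downward, where 4.18% of 287 genes were and 16% were past it upward. That call was lost under 6 of the alternatives tried, and the Nfatc1 ratio ranged from -0.72 to 0.031 over all of them. Erg and Fli1 lay within the bound. Nr2f2, below the minimum with 37 and 32 fragments, went from 58.7 to 98.0 CPM, a ratio of 0.74 (0.01 to 1.46). Its start sites had 15 and 21 fragments (1.42, from 0.41 to 2.49). The summed pan-endothelial markers were also higher in this class, at 1002 and 1313 CPM, and relative to them the Nr2f2 ratio was 0.35. In lymphatic-like nuclei no gene was measured, and Prox1 had a ratio of 0.88 (-0.40 to 2.25).

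Other genes of endothelial regulation were read from fixed lists in the vascular class. Among all 9210 genes measured there 62.0% lay above 0, 6.4% past the bound upward and 3.25% downward, with a median of 0.05. Of 32 other endothelial transcription factors 27 were measured, of which 4 were past the bound upward and 0 downward, with 24 above 0 and a median of 0.14. Id1, an inhibitor of basic helix-loop-helix factors, was highest at 0.37 (0.07 to 0.68) and Gata4 lowest at -0.16. Of 25 genes linked in the literature to ERG, FLI1 or SOXF factors, 22 were measured. All 22 lay above 0, with 4 past the bound upward and 0 downward and a median of 0.16. The angiopoietin receptor gene Tek was highest at 0.42 (0.25 to 0.59) and S1pr1, a sphingosine phosphate receptor gene, lowest at 0.01. This list is not independent of the class, as it holds endothelial marker genes such as Cldn5, a leading gene of the vascular class. Whether the linked genes differ from endothelial markers in general was not tested. Without the T-marked nuclei 3 of 27 of the first list and 3 of 21 of the second were past the bound upward. Arterial genes had 1 of 12 measured past the bound (Hey1, 0.35), venous genes 1 of 5 (Emcn, 0.36) and lymphatic markers 0 of 3. Endocardial markers had 1 upward (Bmp6, 0.38) and 1 downward (Nrg1, -0.43) of 8.

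Whole libraries, with nuclei and all other barcodes, were compared next, and in these fewer cells of a type and less accessible chromatin per cell cannot be told apart. Between sunitinib and vehicle 2 of the 10 genes were past the bound, both downward, where 7.37% of 16726 genes were (13.9% upward). Prox1 went from 33.8 to 23.6 CPM (-0.52, from -0.68 to -0.35) and Sall1 from 16.6 to 10.5 (-0.65, from -0.90 to -0.41). Nr2f2 went from 37.2 to 29.9 (-0.31, from -0.47 to -0.16) and Fli1 from 154 to 191 (0.31, from 0.24 to 0.38). The intervals of the other 6 included 0. The markers of cell classes differed as well: T cell markers stood at 246 and 465 CPM, endocardial markers had a log2 ratio of -0.28 (-0.31 to -0.25), and pan-endothelial markers were at 680 in both. In called nuclei outside the lymphoid classes the ratios were 0.08 for Fli1, -0.14 for Prox1, -0.09 for Nr2f2 and -0.61 (-1.02 to -0.20) for Sall1. There 1 of the 10 was past the bound downward (2.31% of genes) and 0 upward (2.19%).

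For sunitinib plus Yoda1 only 258020 fragments with at least 100 read pairs were used, and 3 of the 10 genes reached the minimum. This cut was made in that library alone, and all fragments of the vehicle and sunitinib libraries were counted. The Yoda1 library had 209296546 read pairs on 583792 unique fragments. The median start-site enrichment of its 11 nuclei was 5.74, against 11.2 with vehicle and 11.4 with sunitinib. Against sunitinib, Erg was at 143 and 157 CPM, Nfatc1 at 170 and 172, and Fli1 at 143 and 191. Fli1, at -0.39 (-0.92 to 0.05), was the 1 past the bound downward, where 20.6% of 844 genes were, and 23.2% were past it upward. Against vehicle none of the 3 was past it (16.4% of 806 genes downward and 21.1% upward). Prox1 had 18 fragments, or 69.8 CPM, with ratios of 1.60 (0.80 to 2.24) to sunitinib and 1.09 (0.28 to 1.72) to vehicle. The 2 comparisons share the Yoda1 library. Cardiomyocyte markers, in whose class Prox1 is also open, were at 1624 CPM in this library against 790 with sunitinib and 824 with vehicle, and their part in the Prox1 value was not tested. Sall1 had 0 fragments there, which allows up to 11.6 CPM, while Sox17 had 2 and Sox18 1.

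**Figure D5:**
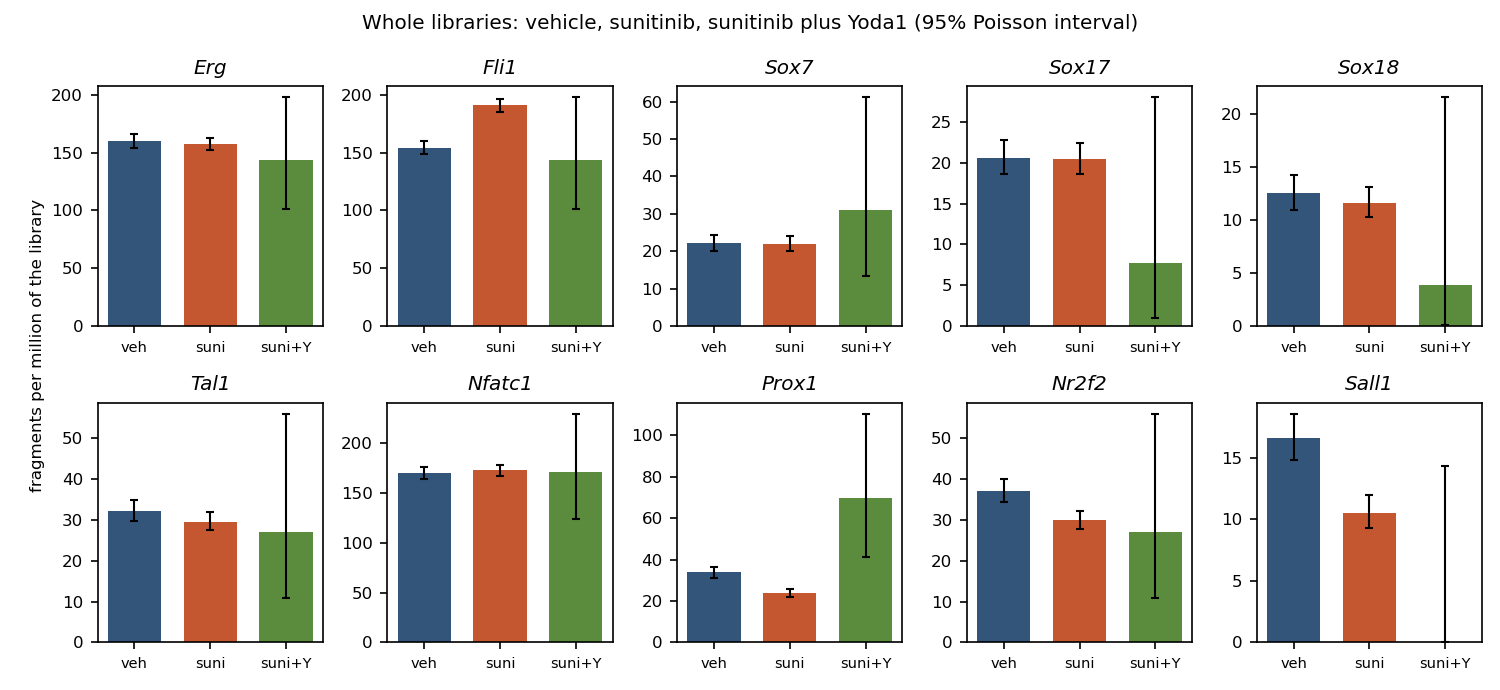
CPM over each gene body in the whole vehicle (veh), sunitinib (suni) and sunitinib plus Yoda1 (suni+Y) libraries, as bars from 0 with exact Poisson 95% intervals. Prox1 and Sall1 are lower with sunitinib than with vehicle, and the intervals of the Yoda1 library are wide.

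Across 9 cell classes in 2 libraries, 18 points in all, the genes most alike in accessibility differed by factor. The lymphatic-like class, with 91239 fragments with vehicle and 63542 with sunitinib, was left out. The points share libraries and depth, so the correlations are descriptions. Erg was most like Pinx1 (Pearson r 0.86), Car8 and Shank3, and Sox18 most like Pinx1 (0.92), Gata2 and Podxl. Pinx1 lies beside Sox7 on chromosome 14. Fli1 went with Mgat4a (0.94), Srgn and Spata6, Sox7 with Commd10 (0.90), Abcc4 and Nxpe4, and Sox17 with Smco4 (0.89), Lmtk2 and Sos1. Tal1 went with S1pr1 (0.87), Thsd1 and Rassf9, and Nfatc1 with Cdc37 (0.87), 4931422A03Rik and Arhgef3. Prox1 was most like Kcnd3 (0.93), a potassium channel gene, with Best3 and Prkaa2. The lymphatic-like class, where Prox1 was highest, has no part in these Prox1 values. Nr2f2 went with Itpr1 (0.94), Vangl1 and Boc, and Sall1 with Dsg2 (0.85), a desmosome gene, Upp1 and Gm527. Among the 10 themselves, Fli1 and Nfatc1 (0.79), Erg and Sox18 (0.79) and Sox17 and Sox18 (0.76) were most alike.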

How the data were processed

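The authors deposited, per the file headers, 1 fragment table per library from cellranger-arc (version 2.0.0 for vehicle and sunitinib, 2.0.2 for sunitinib plus Yoda1) on mm10, in which each row gives a position, a barcode and a count of read pairs. The labels name the treatments, and each treatment has 1 library. Each row was taken as 1 fragment. Nuclei needed 1000 fragments, a start-site enrichment of 4 and a nucleosome ratio below 4. They were clustered by latent semantic indexing of 60000 tiles of 5000 bp (30 components, 20 neighbours, Leiden resolution 0.8). A cluster was named where at least 3 markers of a list were raised 2-fold and the median log2 ratio of the list reached a set minimum. No doublet caller was run. Levels are CPM, fragment counts per 1000000 fragments of the class or library, with exact Poisson intervals, and shares have exact Clopper-Pearson intervals. Ratios are log2 with 0.5 added to each side and a conditional exact interval. A gene is measured at 200 fragments over both libraries and 30 expected in each (60 and 20 at start sites) and past the bound at a log2 ratio of 0.32. A level of 0 is bounded by 3 fragments. The genes named are the 10, the 3 most alike each (over 1 Mb away) and the highest and lowest measured of each list. The 10 genes, lists and alternatives were chosen with earlier results of these data known. The ratio code was tested on simulated counts. Python packages were numpy 2.4.6, scipy 1.17.1, pandas 2.3.3, scikit-learn 1.9.0 and leidenalg 0.10.2. Coordinates follow GENCODE on mm10, and the aligner settings are not given in the sources used here.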

Additional observations from a re-analysis of the deposited data

Results flagged for a closer look

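Prox1 had opposite directions between endothelial classes for sunitinib against vehicle, with log2 ratios of -0.35 in vascular endothelial-like, -0.38 in endocardial-like and 0.88 in lymphatic-like nuclei. The difference between classes was not tested, and all 3 intervals include 0.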

How the results depend on the processing

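The number of genes with their highest level in an endothelial class was 8 with the lymphatic-like class left out, as given above. It was 9 under the other settings tried. In vascular endothelial-like nuclei the 0 genes past the bound became 1 with start-site windows, with nuclei of at least 3000 fragments, with 1 fragment per start and end and with the tiles near the genes kept, and 2 with a lower minimum. In endocardial-like nuclei the 1 became 0 with start-site windows, without the 5% of nuclei with most fragments, with 1 fragment per start and end, at resolution 1.5, without T-marked nuclei and with lymphatic-like nuclei kept. It became 2 when scaled by pan-endothelial markers and 4 with the lower minimum. In whole libraries, sunitinib to vehicle, the 2 became 4 with short fragments and with barcodes under 500 fragments, and 1 outside the lymphoid classes. The Yoda1 counts stayed at 1 and 0. No gene was measured in lymphatic-like nuclei, so that no count was compared.

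Ratios past the bound changed sign in endocardial-like nuclei for Nfatc1 (0.031) and Prox1 (0.10) with start-site windows, Prox1 with lymphatic-like nuclei kept (0.13), Sox18 without the nuclei with most fragments (-0.83), and Sox7 (-0.0093) and Tal1 (-0.018) when scaled by pan-endothelial markers. Fli1 for Yoda1 to sunitinib was 0.0063 with start-site windows. Ratios within the bound crossed 0 under at least 1 alternative for 6 of 10 genes in vascular nuclei, 2 of 10 in endocardial-like nuclei (Erg, from -0.27 to 0.46, and Fli1, from -0.43 to 0.16), 5 of 8 in lymphatic-like nuclei and 6 of 10 in whole libraries. For Yoda1 this held for 3 of 9 genes against sunitinib and 3 of 9 against vehicle. The cause of these shifts was not tested. Some alternatives were added after seeing the data: the removal of T-marked nuclei, lymphatic-like nuclei kept, a split at resolution 2.0 and scaling by pan-endothelial markers. No paired analysis was possible because each treatment has 1 library. Differences between animals could not be measured.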

Other observations

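Outside endothelium, fibroblast-like nuclei had Fli1 at 88.6 CPM with vehicle and 122 with sunitinib (log2 ratio 0.46, from 0.06 to 0.88), and Nfatc1 at 202 and 155 (-0.38, from -0.68 to -0.07). In cardiomyocyte-like nuclei Nr2f2 went from 28 to 13 fragments (-1.37, from -2.47 to -0.40) and Tal1 from 21 to 10 (-1.32, from -2.61 to -0.21), both below the minimum. Erg in T-lymphocyte-like nuclei went from 150 to 106 CPM (-0.51, from -0.87 to -0.11). These values were picked after they were seen, and come from 1 library per group. T cell markers stood at 121 and 267 CPM in fibroblast-like and at 172 and 185 in cardiomyocyte-like nuclei, and their part in these values was not tested.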
